A study of Mus musculus with 2 samples.

Results

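Genes whose products the epididymis secretes were compared in adipose tissue between a high fat diet and a normal diet. The 8 genes were Lcn8, Lcn9, Adam7, Gpx5, Cst12, Rnase10, Spink8 and Defb42, taken as every probe set that the platform annotation gives to 1 of these symbols alone. Each had 1 such probe set, so the genes are 8 of 18193 measured. They were chosen with their difference between the arrays known, and all their values are therefore a description. The mice were C57BL/6, an inbred laboratory strain, with no transgene or mutation named in the labels. RNA pooled from 3 mice on CE-2, a normal chow, went on 1 array, and RNA pooled from 3 mice on HFD32, a high fat diet given to make mice obese, went on the other. Both diets ran from 6 to 18 weeks of age, and tissue was taken at 18 weeks. Neither sex nor fat depot is stated in those labels.

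The epididymis is the coiled duct that carries sperm from the testis to the vas deferens. Its epithelium secretes proteins that coat and protect sperm, and each region of the duct, from the initial segment through the caput and corpus to the cauda, secretes its own set. In male mice the gonadal fat pad lies against this duct, which is why the pad is also called epididymal fat. Textbook regions are the initial segment for Lcn8 and Rnase10 and the caput for Adam7 and Gpx5, and no region is assigned here to Lcn9, Cst12, Spink8 and Defb42.

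Values are log2 signals made by RMA, which corrects background, normalizes between arrays and summarizes each probe set. A difference is the high fat diet signal minus the normal diet signal, so that 1 stands for a doubling of the signal. Background was the 95th percentile of 83 probe sets of odour, pheromone and bitter taste receptor genes, 4.92 for the normal diet and 4.95 for the high fat diet. If the lower of a gene's signals was under background, background took its place in the ratio, which is then written "at least". There is 1 array per diet, so no test, SD or p-value between the diets is possible, and no difference has a replicate check. The number of arrays limits the precision. The only error to be had came from 5131 genes with several probe sets, whose differences had an SD of 0.27 (log2) within a gene. It does not cover animals, dissection or hybridisation.

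The 8 genes fell into 2 sets of opposite direction. Lcn8, Lcn9, Adam7, Gpx5, Cst12 and Rnase10 had the higher signal with the high fat diet, by at least 9.78-fold, while Spink8 and Defb42 were 6.00-fold and 2.87-fold lower. All of these differences exceeded the SD between probe sets of 1 gene, but the genes were picked on them, so nothing is read from that. That SD used only probe sets with a mean signal at or above 5.44, the median probe set. Of 11778 genes with a mean signal at or above the median probe set, 5.44, 3.28% were higher by 2-fold or more and 3.29% lower. Since the genes were picked on this comparison, nothing is read from 6 of 8 and 2 of 8 against those shares. All 8 passed that limit on low signal, and 5 of them (Lcn8, Lcn9, Adam7, Cst12 and Rnase10) did so only through the high fat diet array, so they had to differ. In a bulk sample, fewer cells of a type and less RNA per cell cannot be told apart.

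**Figure D1:**
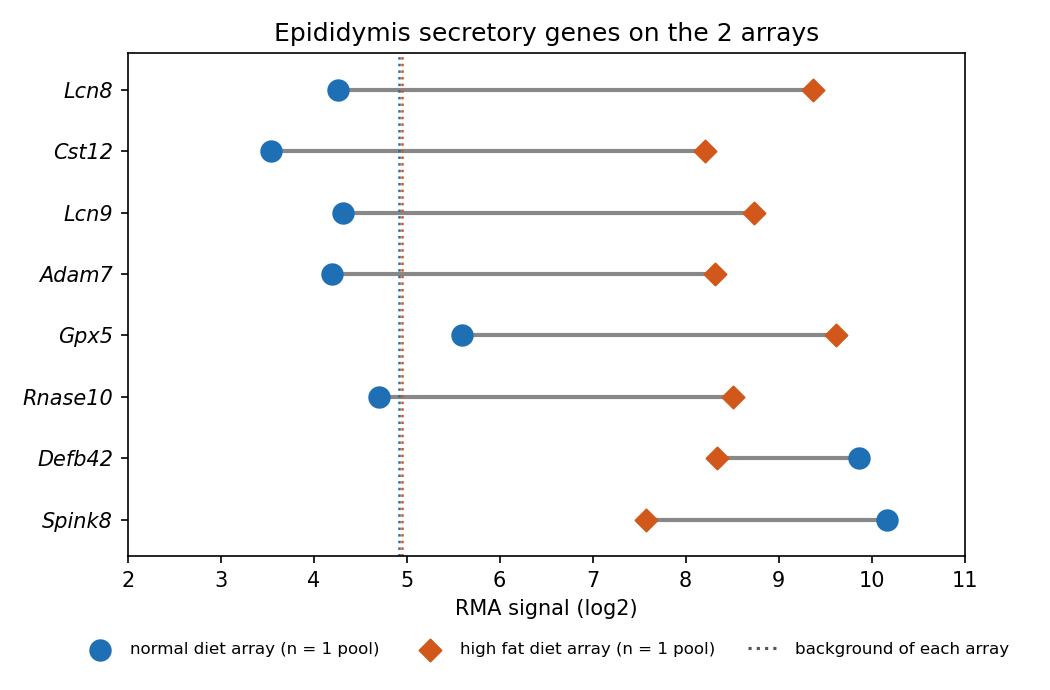
RMA log2 signal (x axis) of each gene (y axis) on the normal diet array (circles) and the high fat diet array (diamonds), 1 pool of 3 mice each, with the background of each array dotted. Lcn8, Cst12, Lcn9, Adam7, Gpx5 and Rnase10 lie between 3.54 and 5.59 with the normal diet and between 8.21 and 9.62 with the high fat diet, and Spink8 and Defb42 are the only pair placed the other way round.

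The transport proteins were both higher. Lcn8 and Lcn9 encode lipocalins, secreted proteins with a pocket for small hydrophobic molecules. Lcn8 (probe set 1450609_at) had a signal of 4.26 with the normal diet and 9.37 with the high fat diet, at least 21.8-fold higher. Lcn9 (1432468_at) had 4.32 and 8.73, at least 14-fold higher. Both were below background on the normal diet array and well above it on the other.

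Among the enzymes and enzyme relatives, all 3 were higher. Gpx5 encodes a secreted glutathione peroxidase that protects sperm lipids from oxidation. Its probe set (1420698_at) had 5.59 and 9.62, and since both arrays lay above background its 16.4-fold ratio is a measured one. Adam7, a membrane protein of the ADAM metalloprotease family that is passed to sperm and lacks a protease active site, had 4.20 and 8.32 (1420742_at), at least 10.5-fold higher. Rnase10, a relative of pancreatic ribonuclease needed for normal sperm maturation, had 4.70 and 8.51 (1453215_at), at least 12.1-fold higher. Gpx5 is thus the single gene of the 6 that was above background on both arrays, by 0.67 on the log2 scale on the normal diet array.

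The protease inhibitors went opposite ways. Cst12 encodes a cystatin of the CRES subgroup, known from the testis and epididymis, and had 3.54 and 8.21 (1424627_at), at least 9.78-fold higher on the high fat diet array. Spink8 encodes an inhibitor of the Kazal type, which blocks serine proteases, and had 10.16 and 7.57 (1435999_at), 6.00-fold lower. Spink8 was above background on both arrays, so a signal for it was also present where the 6 others were low.

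The host defence gene Defb42, a beta-defensin, a small cationic peptide that kills microbes, had 9.86 with the normal diet and 8.34 with the high fat diet (1457127_at), 2.87-fold lower. It too was above background on both arrays. Another probe set that the annotation gives to Defb42 together with a second gene, and that the choice of genes leaves out, had 2.84 and 2.95, below background on both. The 2 probe sets hence disagree on whether the gene was detected. For both Spink8 and Defb42 the annotation lists an expressed sequence tag as the source of the probe set, whereas it lists a RefSeq transcript or a cDNA for the other genes except Lcn9, for which it lists none.

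By region, the initial segment genes Lcn8 and Rnase10 differed by 5.11 and 3.82, and the caput genes Adam7 and Gpx5 by 4.12 and 4.03. Neither Spink8 nor Defb42 has an assigned region here, so the opposite directions cannot be set against region. Over the 6 higher genes the difference ran from 3.82 to 5.11 with a median of 4.27. Over all 8 the median was 4.08, and 3.49 with signals under background raised to it, against 0.00 over the 11778 genes and 0.03 over all 18193. Spink8 and Defb42 had -2.58 and -1.52.

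**Figure D2:**
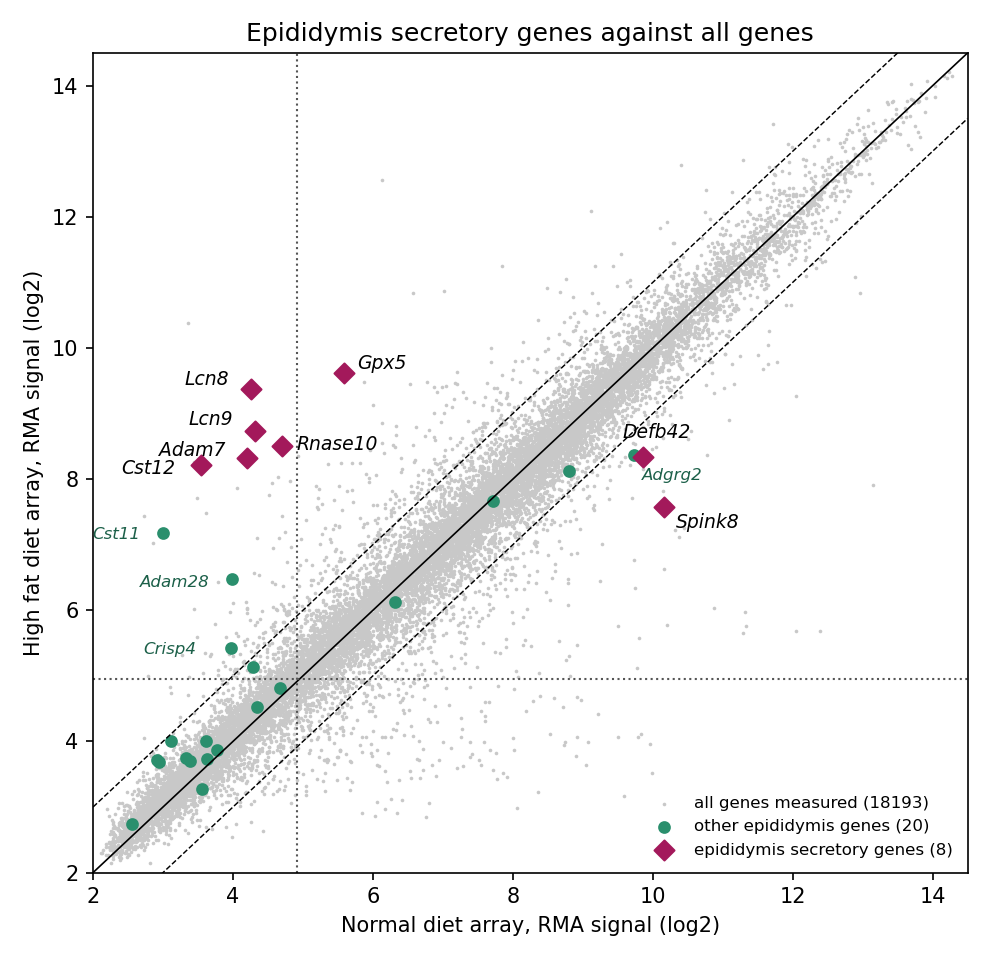
RMA log2 signal with the high fat diet (y axis) against the normal diet (x axis), 1 point per gene, with dashed lines at 2-fold and dotted lines at background. Of the epididymis secretory genes (diamonds), 5 lie left of the background line and above the 2-fold line with Gpx5 just right of it, and Spink8 and Defb42 lie below the lower dashed line; most other epididymis genes (green) sit near the diagonal at the dim end.

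The promoters of 6 of the 8 genes are held by RefSeq's promoter sequences of mouse build GRCm38.p6, namely Lcn8, Lcn9, Gpx5, Cst12, Rnase10 and Defb42. The 250 bases before the start site are shown for Lcn8, Cst12 and Rnase10, which stood high together, and for Defb42, which stood the other way. They lie at chr2:25652868-25653117, chr2:148789115-148789364, chr14:51007501-51007750 and chr14:63046741-63046990, all on the plus strand. Capitals mark matches to the androgen receptor hexamer or the ETS motif described below.
Lcn8: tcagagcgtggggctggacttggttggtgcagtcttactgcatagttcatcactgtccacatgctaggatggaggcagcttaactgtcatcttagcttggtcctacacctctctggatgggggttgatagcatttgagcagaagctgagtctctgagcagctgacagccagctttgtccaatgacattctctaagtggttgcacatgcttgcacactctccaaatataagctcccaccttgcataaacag
Cst12: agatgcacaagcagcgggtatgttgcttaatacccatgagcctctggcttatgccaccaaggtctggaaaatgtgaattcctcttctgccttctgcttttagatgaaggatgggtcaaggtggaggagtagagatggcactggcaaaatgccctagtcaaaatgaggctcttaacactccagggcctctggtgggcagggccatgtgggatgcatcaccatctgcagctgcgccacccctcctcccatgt
Rnase10: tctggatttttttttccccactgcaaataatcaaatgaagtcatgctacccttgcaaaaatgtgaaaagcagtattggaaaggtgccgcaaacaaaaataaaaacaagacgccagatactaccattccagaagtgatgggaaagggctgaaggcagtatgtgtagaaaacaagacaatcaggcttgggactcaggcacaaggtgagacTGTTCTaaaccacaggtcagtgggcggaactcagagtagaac
Defb42: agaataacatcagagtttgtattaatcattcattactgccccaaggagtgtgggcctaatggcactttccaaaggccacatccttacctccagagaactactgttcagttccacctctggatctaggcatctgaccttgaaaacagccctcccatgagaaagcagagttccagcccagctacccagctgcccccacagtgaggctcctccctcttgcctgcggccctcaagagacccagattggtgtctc

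Epididymal secretion depends on androgen, whose receptor binds DNA elements built of the hexamer AGAACA, and many initial segment genes depend on ETS factors of the PEA3 group, which bind AGGAAG. Both motifs were searched on both strands of the 250 bases, as AGAACA or TGTTCT and as AGGAAG or CTTCCT, with overlaps counted. The hexamer was found for Lcn9 and Rnase10, 2 of the 6 genes. By window it was in 3 of the 7 windows of these genes, those of Rnase10 overlapping, and in 16.1% of 32851 promoter windows of the table. In Lcn9 the match lies from 45 to 40 bases before the listed start, within 65 bases that are inside the RefSeq bounds of the gene. In Rnase10 the hexamer reads TGTTCT in the sequence shown, from 42 to 37 bases before the start. Its second, overlapping window holds that TGTTCT and also AGAACA, from 183 to 178 bases before its own start. The ETS motif was found for Rnase10 alone, in its second listed promoter, and in 29.5% of all windows. Of that promoter 178 bases are inside the bounds of the gene, the ETS match among them. The full androgen response element, a palindrome of that hexamer, was in none of the 6 genes and in 3 of 32851 windows. The sequences of Lcn8, Cst12 and Defb42 hold no capitals, which says only that these letters are not in those windows.

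Several of the genes sit in clusters of relatives on the chromosome, and the relatives were not all alike. The order of genes was taken from RefSeq, and the clusters were chosen after their values were seen. In the lipocalin stretch of chromosome 2, from Lcn15 to Lcn9, 8 of 12 genes were measured. Lcn8 and Lcn9 were the only ones past 2-fold, and 5 others were below background on both arrays, none above 4.34. These include Lcn5, next to Lcn8, which encodes the retinoic acid binding lipocalin of the distal caput and had 3.63 and 3.73. Obp2a had 3.07 and 3.42, Lcn3 4.19 and 4.34, and Lcn11 3.56 and 3.27. Bmyc, a relative of the Myc gene in the same stretch, had 8.28 and 7.58.

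In the cystatin stretch from Cstl1 to Cstdc2, also on chromosome 2, 6 of 8 genes were measured and 3 were at least 2-fold higher. Beside Cst12 these were Cst11, another cystatin of the male tract, with 3.0 and 7.18, at least 4.80-fold higher, and Cstdc2 with 5.54 and 8.25, a difference of 2.71. Cstdc1, Cst13 and Cst9 lay below background on both arrays, with no signal above 4.02. Cst11 and Cst12 were thus separated by Cstdc1, a gene below background.

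**Figure D3:**
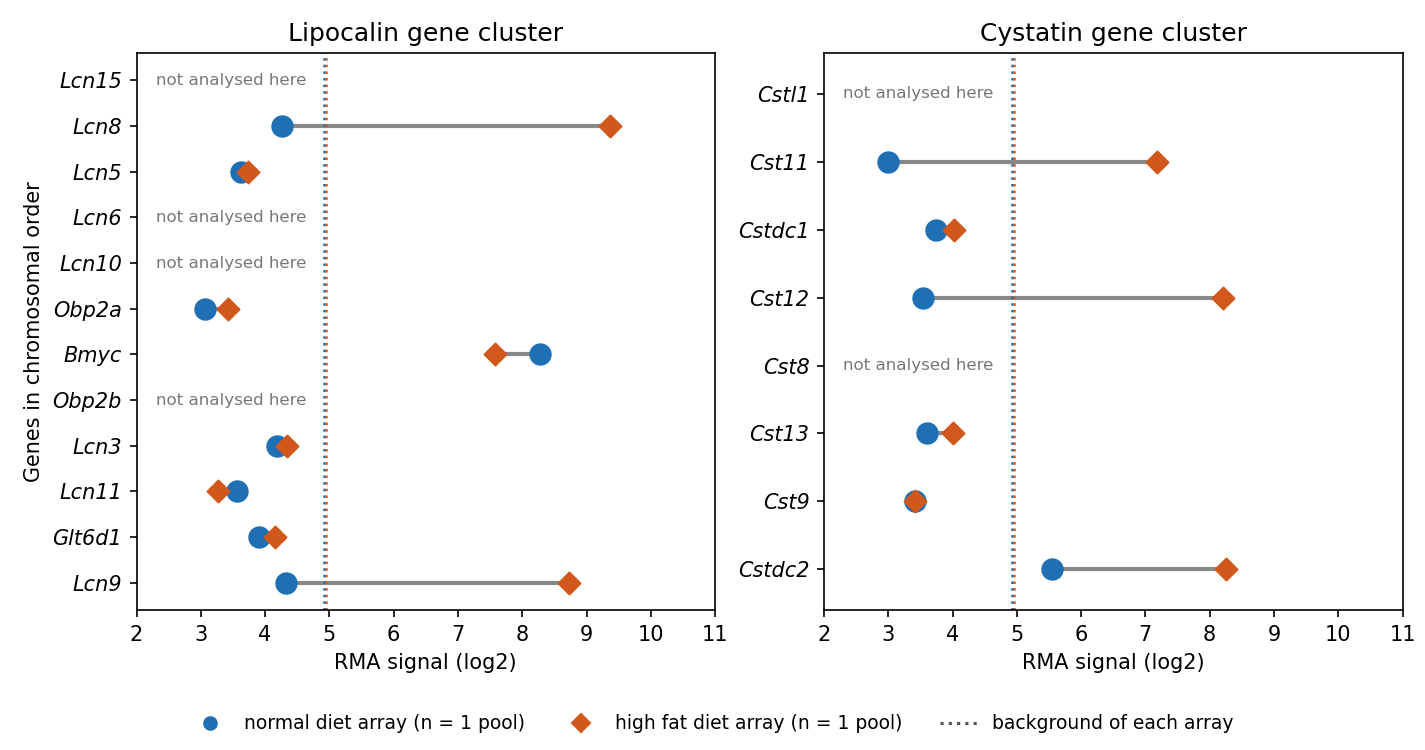
RMA log2 signal (x axis) of the genes of the lipocalin and the cystatin cluster in chromosomal order (y axis), with circles for the normal diet array, diamonds for the high fat diet array and dotted lines for background. Lcn8 and Lcn9 in the lipocalin cluster, and Cst11, Cst12 and Cstdc2 in the cystatin cluster, lie far right on the high fat diet array, with most of the other genes shown left of background.

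Over the 4 nearest genes on each side of all 8, 41 neighbours were measured. At least 2-fold higher were Cst11, Cstdc2 and Adam28, against 2.58% of all 18193 genes, and 0 were lower, against 2.87%. Below background on both arrays were 17 of the 41, which could not count in either direction. Adam28, a metalloprotease gene close to Adam7 that lymphocytes also express, had 3.98 and 6.48, at least 2.95-fold higher, and its other probe set had 3.45 and 3.85, below background. Between them lies Adamdec1, with 4.07 and 4.17. Gpx6, next to Gpx5, had 4.19 and 4.68 and was below background on both arrays. Nme6 and Camp, on the far side of Spink8 from the Fbxw genes, had 7.03 and 7.10 and 5.48 and 4.54.

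Other genes known from the epididymis were mostly not detected. Of a list of 52 symbols, which holds Adgrg2 also under its older name Gpr64, 20 were measured and 12 of these lay below background on both arrays. At least 2-fold higher were 3, against 2.58% of all 18193 genes, and 1 was at least 2-fold lower, against 2.87%. The median difference was 0.25. Cst11 and Adam28 are given above, and Crisp4, a cysteine-rich protein that binds sperm, had 3.97 and 5.43, a ratio of at least 1.42 against background. Adgrg2, an adhesion receptor that governs fluid balance in the male ducts, was the lower gene, with 9.73 and 8.37, 2.56-fold lower, and its other probe set fell by 1.37 on the log2 scale. Like Spink8 and Defb42, Adgrg2 was above background on both arrays and lower on the high fat diet array. Cuzd1, Defb45 and Ces5a also had both signals above background, but their differences were -0.67, -0.18 and -0.06, all short of 2-fold. Ros1, a receptor kinase of the initial segment, had 3.11 and 4.0, below background on both.

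In the families of the 8 genes, few other genes were past 2-fold. In the beta-defensin family 19 genes besides Defb42 were measured, none was past 2-fold in either direction, and 15 lay below background on both arrays. In the Spink family, 4 of 6 besides Spink8 lay below background on both, and Spink1, the pancreatic trypsin inhibitor, had 5.31 and 3.24, at least 1.28-fold lower. Among lipocalins, 13 genes besides Lcn8 and Lcn9 held 0 that were 2-fold higher and 2 that were lower. These were Ambp, a plasma protein of liver (8.91 and 4.07), and Ptgds, the prostaglandin D synthase (8.35 and 7.32). Apom was not past 2-fold on its probe set of highest mean (6.13 and 5.32), but its other had 6.41 and 4.80, a difference of -1.61. Of the other 7 glutathione peroxidases 0 were higher and 1, the plasma enzyme Gpx3 (12.89 and 11.08), was lower by 3.51-fold. Of 10 listed cystatins besides Cst12, Cst11 alone was past 2-fold on its probe set of highest mean. The intracellular inhibitor Cstb had 11.96 and 12.84, and its other probe set had 10.30 and 11.78, a difference of 1.48. Cstdc2, given above, is not in this list.

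Among 8 ribonuclease genes besides Rnase10, 1 was higher and 1 lower. Rnase2a, an eosinophil-associated ribonuclease, had 4.92 and 8.35, 10.7-fold higher, with its normal diet signal level with background. Rnase1, the pancreatic ribonuclease, had 7.09 and 4.55, at least 4.40-fold lower. Among 24 ADAM genes besides Adam7, 3 were higher and 0 lower. They were Adam8, a gene of myeloid cells (6.52 and 9.45), Adam12, a gene of mesenchymal cells (7.21 and 9.45, and a difference of 2.66 on its other probe set), and Adam28.

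The 5 genes nearest to the centre of the 6 higher genes, at 4.29 and 8.62, were found by the distance in the plane of both signals. This likeness rests on 2 arrays. Rnase2a lay at a distance of 0.69, Cdkl4, a protein kinase gene, also at 0.69, and Atp1a4, the sodium pump subunit of sperm, at 0.73. Teddm2, a gene of a transmembrane family named after the epididymis, lay at 0.79 with 4.06 and 7.86, and Ncan, a proteoglycan gene of brain, at 0.84.

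The arrays were checked against markers of sex, depot and neighbouring tissues. The Y-linked genes Eif2s3y, Kdm5d and Uty had signals from 6.94 to 9.53 on both arrays, and Xist, the RNA of the inactive X chromosome, lay below background with 4.08 and 4.54. All 12 adipocyte markers measured were far above background, from 9.49 to 14.28, with a median difference of -0.07. All 8 markers of visceral fat and its mesothelial cover were above background on both arrays and negative in difference, 3 by at least 2-fold, among them Wt1 with 6.98 and 5.85. Of 4 markers of subcutaneous fat, En1 and Shox2 were below background on both arrays, Tbx15 had 4.51 and 4.97, and Hoxc10 had 5.94 and 6.21.

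Of 18 testis and sperm genes measured, 0 were at least 2-fold higher, 7 were lower and 7 were below background on both arrays. Among the 7 lower, Akap4 and Smcp had ratios under 2 against background, at least 1.54 and at least 1.94. The summed linear signal of the 18 went from 1266 with the normal diet to 542 with the other. Tnp1, a packing protein of sperm DNA, had 7.55 and 4.47, at least 6.05-fold lower, and Tnp2 had 6.14 and 4.07. Prm1, a protamine, had 8.33 and 6.42 on its brightest probe set and signals below background on the high fat diet array on the other 2. Of 9 seminal vesicle and prostate genes, 8 were below background on both arrays, with Tgm4 at 4.66 and 5.16 the exception.

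Of 15 epithelial markers measured, 0 were at least 2-fold higher, 6 were lower and 3 lay below background on both arrays. Among the 6 lower, Esrp1 had a ratio under 2 against background, at least 1.35. The summed linear signal of the 15 was 1924 and 931. Cldn7 had 7.15 and 5.11, Cdh1, the cadherin of epithelia, 6.52 and 4.48, and Krt8, a keratin of simple epithelia and mesothelium, 8.82 and 7.36. Epcam, an epithelial adhesion molecule named after its value was seen, had 6.68 and 6.90 on the probe set of higher mean, and its other probe set had 7.01 and 5.98, so its direction is unsettled. Spink8, Defb42 and Adgrg2 shared their direction with 10 of the 15 epithelial markers, while 5 were positive in difference. They shared it also with all 8 visceral fat and mesothelial markers, whose sums were 3352 and 1770. Krt19 is in both lists, so the lists are not independent. The part of neighbouring epithelium or of dissection in either set of genes was not tested.

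Marker genes of other tissues also had different signals on the arrays. All 12 hepatocyte genes were lower by 2-fold or more with the high fat diet, with a median of -5.61 and summed linear signals of 31121 and 634. Of 8 pancreas genes 7 were lower (median -2.66), with sums of 3354 and 2193, and of 2381 and 319 without Cela1, an elastase gene that had 9.93 and 10.87. Of 10 skeletal muscle genes 8 were lower (median -1.85, sums 4646 and 1948). Of 12 macrophage genes 6 were higher and 0 lower (median 0.90, sums 13527 and 25633). The 6 higher epididymis genes stood against the direction of the hepatocyte, pancreas and muscle lists and with that of the macrophage list. Spink8 and Defb42 stood the other way. Since the genes were picked on this comparison, these directions are a description and nothing is read from them. With 1 pool per diet, the diet and the make-up of each pool cannot be told apart.

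**Figure D4:**
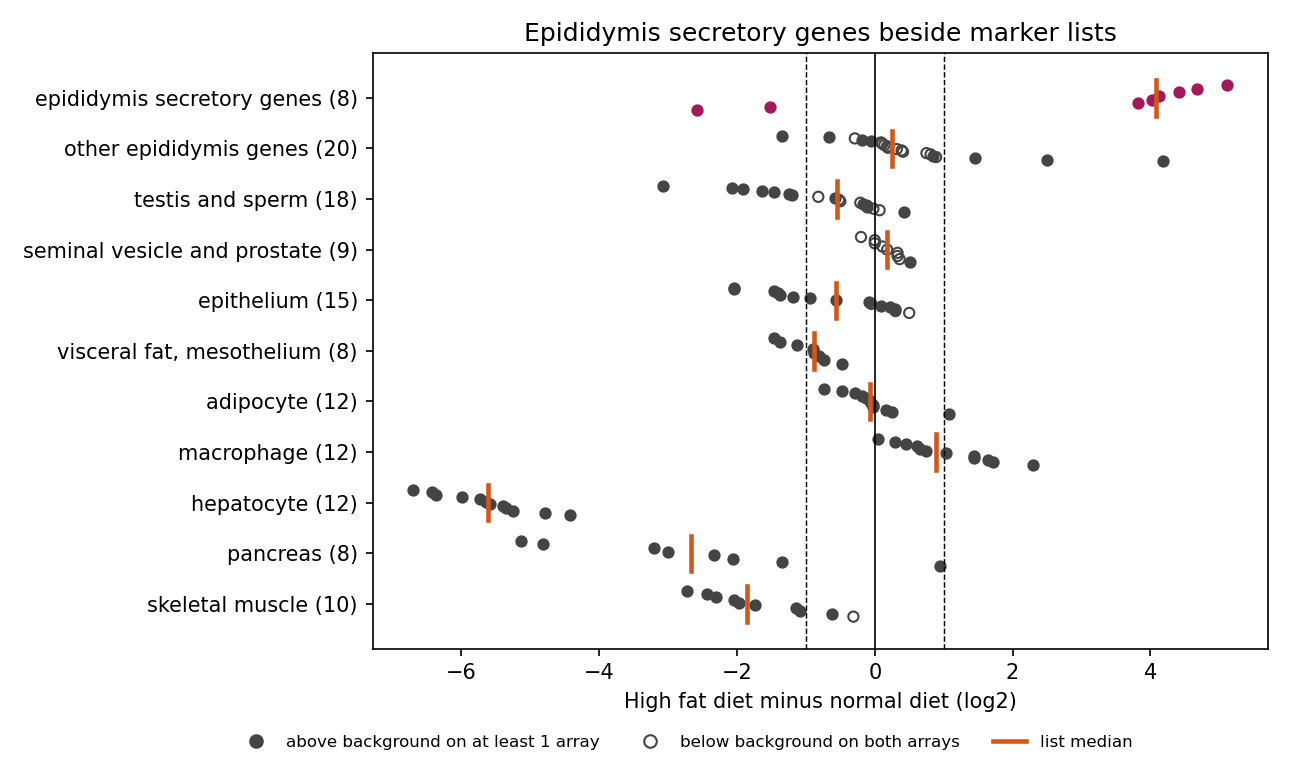
Difference in log2 signal, high fat diet minus normal diet (x axis), of each gene of the lists on the y axis (number measured in brackets), with open points for genes below background on both arrays, orange bars for list medians and dashed lines at 2-fold. The 8 epididymis secretory genes lie in 2 separate clumps, 6 from 3.82 to 5.11 and 2 at -2.58 and -1.52, while the testis, epithelium and visceral fat lists lie mostly left of 0.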

How the data were processed

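Total RNA of adipose tissue, pooled from 3 mice per diet, was measured on 1 Affymetrix mouse array per diet. The deposited values are log2 signals that the authors made with RMA, per the submitters' processing notes, whose version and annotation are not stated in them. The scale was read off the values, 2.04 to 14.28 and 2.06 to 14.21. The sorted columns differed by at most 0.14, so a change in total RNA is not visible. Probe sets were named from the platform annotation, and 34945 with 1 symbol were used. Entrez IDs of 34741 were found in RefSeq (GRCm38.p6), which changed no symbol. A gene stood as its probe set of highest mean. A gene counted as 2-fold higher or lower if its signals differed by 1 or more (log2) and its brighter array was above background. Analysis used Python 3.11.15, pandas 2.3.3 and NumPy 2.4.6, and the calls were tested on simulated data with shifts planted in bright genes only. Lcn8, Lcn9, Adam7, Cst12 and Rnase10 had lower mean signals than those, so the simulation does not cover genes as dim as these. In each list, up to 3 genes farthest in the direction of its median, 1 farthest the other way and all past 2-fold where 5 or fewer could be named, besides the 8 genes and 5 nearest ones. Bmyc, Cstdc2, the other cluster and neighbour genes, Lcn5, Ros1, En1, Uty, Epcam, Akap4, Smcp and Esrp1 were named after their values were seen. So were Car3, Fabp4, Pnpla2, Cuzd1, Defb45, Ces5a and Apom. The genes and lists were chosen with earlier results of these data known.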

Additional observations from a re-analysis of the deposited data

How the results depend on the processing

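Each result was recomputed with the median over a gene's probe sets, without probe sets open to cross-matching (suffix _x_at or _s_at), with the median difference of 0.04 subtracted, with quantile normalization and with signals under background raised to it. In all 5 settings 6 of the genes were at least 2-fold higher and 2 lower, and none changed sign. Each of the 8 genes has 1 probe set, with neither suffix, so the settings on probe sets could not change their values. The subtracted 0.04, and the 0.14 by which the sorted columns differed, are small beside their differences. Those settings could therefore hardly change the calls, and the counts are no check of them. Raising signals to background took the differences of Lcn8, Lcn9, Adam7 and Cst12 to 4.45, 3.81, 3.39 and 3.29 and the median to 3.49, since it replaces dim signals by a higher one, and left 2 of the other epididymis genes 2-fold higher in place of 3, without Crisp4. Among the other epididymis genes, requiring a mean at or above 5.44 left only Adgrg2, Cuzd1, Defb45 and Ces5a, with 0 higher and a median of -0.42. That limit drops genes that are dim on the normal diet array or on both arrays. With the limit at the 75th percentile of probe sets, 190 of all genes were higher and 132 lower. No paired analysis was possible because each diet has 1 array. For the same reason no replicate could be left out. Signals under background limit 5 of the 6 higher genes to a lower bound.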
